A study of Mus musculus with 12 samples.

Results

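Chemokines are small secreted proteins that guide the migration of leukocytes and progenitor cells, and their receptors are the membrane proteins that detect them. The genes described here are the chemokine and chemokine receptor genes printed on a whole mouse genome array, chosen by name: every non-control probe whose gene name starts with Ccl, Cxcl, Ccr or Cxcr and a digit, or with Cx3c, or is Xcl1 or Xcr1. The name rule found 51 genes, 35 ligands and 16 receptors, on 67 probes, of 27670 gene names on the array. Each gene was represented by its probe with the highest mean over the 12 arrays.

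The series asks how the heart's transcripts differ when cardiomyocytes lack the glucocorticoid receptor, the ligand-activated transcription factor encoded by Nr3c1. Whole-heart RNA was hybridised to 12 single-colour Agilent arrays, 1 for each heart, with 4 groups of 3 separate mice. The knockout mice (cardioGRKO) were males on a C57BL/6 background with a floxed receptor gene and a Cre transgene driven by the cardiomyocyte-specific alphaMHC promoter, and were 1 or 2 months old. The controls were male Cre-negative GRflox littermates of the same ages, so both groups carried the floxed gene and only the knockouts carried Cre. Effects of Cre itself and of receptor loss cannot be told apart, and cells other than cardiomyocytes keep the receptor gene. In whole-heart RNA fewer cells of a type and less RNA per cell cannot be told apart.

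Chemokines fall into CC, CXC, CX3C and XC classes by the spacing of their first cysteines, and most bind G protein-coupled receptors on leukocytes. Some are inflammatory and are induced by nuclear factor kappa B or interferon, while others are made steadily by stromal cells and endothelium to hold resident cells in place. In the heart, fibroblasts, endothelium and resident macrophages are known sources, and glucocorticoids are known to repress many of the inflammatory members.

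Levels are log2 signals scaled to each array's own 75th percentile, so that 0 is the signal of a fairly bright probe and 1 unit is a doubling. A probe's own brightness enters this level, so levels were compared between hearts and never between genes. The 75th percentile of the raw signal lay between 885.8 and 1549.1 on the 12 arrays, and between 66.6% and 81.7% of probes were well above background. Slide 1 held the 3 control hearts of 1 month and nothing else, so for comparisons with that group the slide and the group cannot be told apart. Slides 2 and 3 held 4 and 3 hearts, and slide 4 held knockout heart 1 of 1 month and knockout heart 3 of 2 months, scanned on a later day. These slide 4 arrays and that of control heart 2 of 2 months detected 78.9%, 79.1% and 81.7% of probes, against 66.6% to 73.5% on the other 9 arrays. Nr3c1 was lower in every knockout heart than in every control heart of its age, by 1.00 on the log2 scale at 1 month (from a mean of 2.26 to 1.26, limma with Benjamini-Hochberg adjustment over all genes, adjusted p = 0.0514) and by 1.14 at 2 months (from 2.06 to 0.92, adjusted p = 0.012). The summed linear signal of 8 cardiomyocyte markers was 1922 to 3326 times the array's 75th percentile, while the sums of 6 lung and 7 adipocyte markers ranged from 0.070 to 18.8 and from 4.08 to 185.8 between hearts.

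Of the 51 genes, 36 were well above background on all 12 arrays (25 ligands and 11 receptors), and between 37 and 45 were so on any single array. Detection on 3 or more arrays was required for testing, and 44 genes met it, which is 86.3% of the members against 79.2% of all gene names. The 7 genes left out were Ccl20, Ccl22, Ccr1, Ccr8 and Cxcl2, which were well above background on no array, and Cxcl11 and Cxcl15, which were so on 2 arrays and 1 array. None of the 51 probes was saturated. Among the 8 tested genes that some arrays did not detect were the ligands Ccl1, Ccl28, Cxcl5 and Xcl1 and the receptors Ccr4, Ccr10 and Ccr1l1. The other one, the monocyte-attracting ligand Ccl6, lacked only the array of control heart 1 of 2 months, whose spot was marked as non-uniform and was left out of its fit.

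No chemokine or receptor gene passed the test between knockout and control hearts at either age, while 2 ligands passed between the ages within a genotype. With limma and an adjusted p under 0.05 over the 21907 genes tested, 0 of the 44 members passed at 1 month, where 0.0274% of all genes did, and 3 members had an unadjusted p under 0.05 (6.03% of all genes). At 2 months 0 of 44 passed, where 0.137% of all genes did, and 4 had an unadjusted p under 0.05 (7.65% of all genes). For the difference of the knockout effect between the ages 0 members passed, 0% of all genes did, and 0 members had an unadjusted p under 0.05 (1.35% of all genes). Under every alternative processing tried for these 3 comparisons, the number of members that passed was also 0. Between 1 and 2 months, Cxcl14 rose in the controls, where 2.12% of all genes passed, and Cxcl14 and Cx3cl1 rose in the knockouts, where 0.817% did.

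Both genotypes were also averaged, a comparison added after the data were seen, which gives 6 hearts per age. In it 6 of 44 members passed, against 8.86% of all genes: Cxcl14, Cx3cl1, Ccl11 and Ccl1 rose (4.27% of all genes rose), and Cxcl10 and Cx3cr1 fell (4.59% fell). The same average over the ages gave 0 of 44 members for the knockout, against 0.735% of all genes, with 8 members at an unadjusted p under 0.05 (11.6% of all genes). Counts of groups that did not overlap were 4 of 44 members for the knockout at 1 month (18% of all genes) and 5 of 44 at 2 months (12.4% of all genes). With age they were 11 of 44 in the controls (23% of all genes) and 9 of 44 in the knockouts (25.4% of all genes). The median log2 difference over the 44 members was 0.08 for the knockout at 1 month and 0.00 at 2 months, against 0.04 and 0.03 over all genes. With age it was 0.21 in the controls and 0.05 in the knockouts, against 0.12 and 0.10 over all genes. The age and knockout comparisons share hearts and are therefore not independent of each other.

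**Figure D1:**
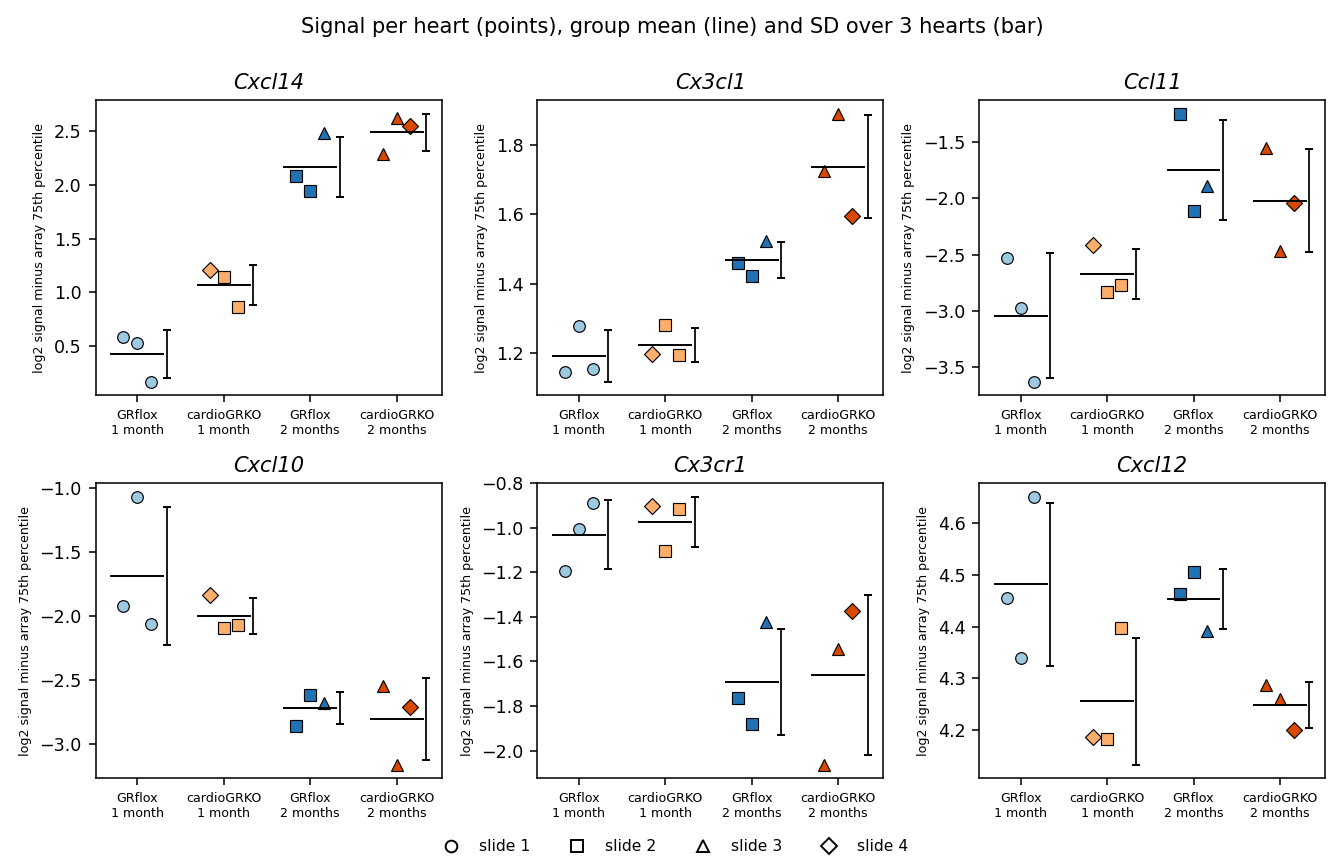
Scaled log2 signal (vertical axis, log2 units relative to the array's 75th percentile) of 6 members in each of the 12 hearts, by group; points are hearts, their shapes the 4 slides, lines group means and bars the SD over 3 hearts. Cxcl14 and Cx3cl1 were higher in every 2-month heart than in every 1-month heart, Cxcl10 and Cx3cr1 were lower, and Cxcl12 stayed between 4.18 and 4.65.

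Cxcl14 is a ligand of epithelia and stroma that attracts monocytes and immature dendritic cells, and it lies among the homeostatic CXC ligands. Its probe, on chromosome 13 (mm7, chr13:55377968-55378027, minus strand), begins with these bases, shown because every value of the gene rests on it.
Cxcl14 probe, first 30 of 60 bases: cctcattagaggccgcactgtatggctgtg
Cxcl14 measured 0.58, 0.52 and 0.17 in control hearts 1 to 3 of 1 month and 1.21, 1.15 and 0.86 in the knockout hearts of that age. At 2 months it measured 2.09, 1.94 and 2.48 in the controls and 2.29, 2.62 and 2.55 in the knockouts. All 6 hearts of 2 months lay above all 6 hearts of 1 month, and the lowest level was that of control heart 3 of 1 month. The order held on the slides that carried both ages. On slide 2 the knockout hearts of 1 month (1.15 and 0.86) lay below the control hearts of 2 months (2.09 and 1.94). Age and genotype cannot be told apart on that slide. On slide 4, which held knockouts only, the values were 1.21 at 1 month and 2.55 at 2 months.

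The rise of Cxcl14 with age was 1.75 on the log2 scale in the controls (SE 0.18, 3.36-fold, limma adjusted p = 0.00347) and 1.42 in the knockouts (SE 0.18, 2.67-fold, adjusted p = 0.0174), with 3 hearts per group. Averaged over the genotypes it was 1.58 (SE 0.13, 95% interval 1.30 to 1.87, adjusted p = 0.000498), and this call held under all 24 alternatives. In the controls, centring each array on its median gave 1.49 (adjusted p = 0.0837). In the knockouts alone the call was lost without any 1 of the 6 knockout hearts, where the log2 rise was 1.31 to 1.52 and the adjusted p 0.0561 to 0.0951. Slide as a fixed block also removed the knockout call (1.19, limma adjusted p = 0.245). So did array median centring (1.36, adjusted p = 0.533) and leaving out the later scan day (1.45, adjusted p = 0.183). Fibroblasts are a known source of Cxcl14, and 6 of 10 fibroblast markers fell between the ages when both genotypes were averaged, against 4.59% of all genes. Their summed linear signal was 634 to 662 in controls and 636 to 673 in knockouts at 1 month, and 563 to 576 and 559 to 651 at 2 months, with all 10 markers above background on every array. The collagen genes led this fall, Col3a1 by 1.51 and Col1a1 by 1.44 on the log2 scale, and the part of these cells in the Cxcl14 result was not tested.

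Between the genotypes Cxcl14 did not pass the test. At 1 month its level was higher in all 3 knockout hearts than in all 3 control hearts, with a log2 difference of 0.65 (SE 0.18, 95% interval 0.25 to 1.05), an unadjusted p of 0.00513 and an adjusted p of 0.591 by limma. This was the smallest p of the 44 members in that comparison, and all 3 control hearts were on slide 1. At 2 months the groups overlapped and the log2 difference was 0.32 (SE 0.18, 95% interval -0.08 to 0.72, adjusted p = 0.786). Within slide 3, which held 1 control and 2 knockout hearts of that age, it was -0.02. The 2 knockout effects differed by -0.33 (95% interval -0.90 to 0.24, adjusted p = 1.0), so neither equality nor a difference of the effects was shown.

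Cxcl12, the stromal ligand that retains progenitors and lymphocytes through the receptor Cxcr4, did not pass in any comparison on its brighter probe. It measured 4.46, 4.34 and 4.65 in the control hearts of 1 month and 4.19, 4.18 and 4.40 in the knockouts, then 4.46, 4.51 and 4.39 in the controls of 2 months and 4.29, 4.26 and 4.20 in the knockouts. At 2 months all 3 knockout hearts lay below all 3 controls, and at 1 month knockout heart 3 lay above control heart 2. Its range over the 12 hearts was 0.47 log2 units, the narrowest of the 44 members, whose median range was 1.47 (1.01 over all genes). The log2 difference between knockout and control was -0.23 at 1 month (SE 0.10, 95% interval -0.45 to 0.00, limma adjusted p = 0.834) and -0.21 at 2 months (SE 0.10, 95% interval -0.43 to 0.02, adjusted p = 0.713). Averaged over the ages it was -0.22 (SE 0.07, unadjusted p = 0.0146, adjusted p = 0.268), short of the threshold. With normexp background correction and quantile scaling the difference at 1 month was 0.0030. With age Cxcl12 differed by -0.03 in the controls and -0.01 in the knockouts (95% interval of the average -0.18 to 0.14).

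A second probe of Cxcl12, designed on another transcript of the gene (mm7, chr6:117200799-117200858, plus strand), gave a different picture with age. Both probes are shown because they read different transcripts and the gene's values depend on which is used.
Cxcl12 brighter probe, first 30 of 60 bases: aggagaaggcagcttcctatatgcagcgtg
Cxcl12 other probe, first 30 of 60 bases: gaattaatcataaacggaagtttaaatgag
The other probe measured -0.05, -0.17 and -0.18 in the control hearts and -0.41, -0.26 and -0.26 in the knockout hearts of 1 month. The hearts of 2 months measured -0.51, -0.66 and -0.45 in the controls and -0.57, -0.52 and -0.86 in the knockouts. On this probe all 2-month hearts lay below all 1-month hearts, and it fell by 0.37 averaged over the genotypes (SE 0.08, limma adjusted p = 0.0232), against a difference of -0.02 on the brighter probe. Within a genotype its age differences of -0.41 and -0.34 did not pass (adjusted p = 0.119 and 0.207). Its difference between knockout and control was -0.18 at 1 month and -0.11 at 2 months, the same sign as on the brighter probe.

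The remaining ligands of this group were Cxcl13, which draws B cells into lymphoid follicles, and Cxcl16, a membrane-bound ligand of the receptor Cxcr6. Cxcl13 had the widest range of all members, 6.76 log2 units, and most of it lay within groups. It measured -0.19, 0.59 and -5.62 in the controls and 0.70, 1.14 and -3.77 in the knockouts at 1 month, and -2.47, -3.00 and -1.73 in the controls and -0.47, -2.30 and -1.49 in the knockouts at 2 months. The heart numbered 3 was far below the other hearts of both 1-month groups. The summed linear signal of 15 lymphocyte markers, 13 of them above background on every array, was also lowest in these hearts at that age, 5.46 and 4.86 against 9.11 to 12.4 in the other 4, and its part in the Cxcl13 values was not tested. The log2 difference between knockout and control was 1.10 at 1 month (95% interval -2.73 to 4.92) and 0.98 at 2 months (95% interval -2.84 to 4.81), and without control heart 3 of 1 month the first was -0.84. Cxcl16 ranged over 0.66 log2 units on its brighter probe, and its difference between knockout and control was -0.20 at 1 month and -0.19 at 2 months (limma adjusted p = 0.84 and 0.799). A second Cxcl16 probe measured -0.42, -0.28 and -0.46 in controls and -0.21, -0.35 and -0.53 in knockouts at 1 month. At 2 months this probe measured -0.41, -0.44 and -0.40 in controls and -0.77, -0.26 and -0.18 in knockouts. On it the genotypes overlapped at both ages.

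Cx3cl1 (fractalkine) is a membrane-bound ligand of endothelium, neurons and muscle that tethers and attracts monocytes, and Cx3cr1 is its receptor on monocytes and resident macrophages. The ligand rose with age while the probe chosen for the receptor fell. Cx3cl1 measured 1.15, 1.28 and 1.15 in the control hearts and 1.20, 1.28 and 1.20 in the knockout hearts of 1 month. Its values at 2 months were 1.46, 1.42 and 1.52 in the controls and 1.73, 1.89 and 1.59 in the knockouts. Every 2-month heart lay above every 1-month heart, and at 2 months every knockout lay above every control.

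The log2 rise of Cx3cl1 with age was 0.51 in the knockouts (SE 0.09, limma adjusted p = 0.0474), a call lost without any 1 of the 12 hearts (adjusted p 0.0607 to 0.185). In the controls the difference was 0.27 (SE 0.09, adjusted p = 0.184), and over both genotypes the rise was 0.39 (SE 0.07, 95% interval 0.25 to 0.54, adjusted p = 0.00772). Centring each array on its median gave 0.23 for that average (adjusted p = 0.648). Between the genotypes the log2 difference was 0.03 at 1 month (95% interval -0.18 to 0.24) and 0.27 at 2 months (95% interval 0.06 to 0.48, unadjusted p = 0.0168, adjusted p = 0.475). The effects at the 2 ages differed by 0.24 (95% interval -0.06 to 0.53, adjusted p = 1.0). The sum of 10 endothelial markers, 9 of them above background on every array, was 105 to 110 in controls and 95.4 to 103 in knockouts at 1 month, and 64.8 to 99.1 and 85.4 to 95.2 at 2 months, and its part in the Cx3cl1 result was not tested.

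Cx3cr1 measured -1.19, -1.01 and -0.89 in the control hearts and -0.90, -1.11 and -0.92 in the knockout hearts of 1 month. At 2 months it measured -1.77, -1.88 and -1.42 in the controls and -2.06, -1.54 and -1.37 in the knockouts. All 2-month hearts lay below all 1-month hearts, with a log2 fall of 0.67 averaged over the genotypes (SE 0.13, limma adjusted p = 0.0166), while the differences within a genotype, -0.66 and -0.69, did not pass (adjusted p = 0.123 and 0.137). A second probe for the same transcript, also above background on all arrays, gave a log2 difference of 0.32 in the other direction, and the mean of both probes gave -0.18 (adjusted p = 0.612). The second probe was dimmer, between -4.78 and -2.86. Its highest 3 values (-3.34, -3.38 and -2.86) were on the 3 arrays that detected the most probes. The direction for this receptor therefore depends on the probe. The sum of 16 macrophage markers, all above background on every array, overlapped between all groups: 125 to 157 and 128 to 161 at 1 month in controls and knockouts, and 120 to 150 and 136 to 165 at 2 months. Within that list Cd68, a lysosomal macrophage protein, fell by 0.61 with age in the controls (adjusted p = 0.022) and H2-Aa, an antigen-presenting molecule, rose by 0.88 (adjusted p = 0.0227), and their part was not tested.

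Xcl1, the lymphocyte ligand of the receptor Xcr1, was well above background in none of the 3 control hearts of 1 month and in 2, 3 and 3 hearts of the other groups. It measured -5.71, -5.75 and -6.32 in the 1-month controls, -4.80, -5.57 and -5.15 in the 1-month knockouts, -5.24, -3.46 and -5.55 in the 2-month controls and -5.20, -4.72 and -5.51 in the 2-month knockouts. The first group was not well above background. Folds against such a group set each dim array to its dimmest probe well above background or to the probe's own value, whichever was higher. They concern the dim level only and set no minimum against the spread between hearts. For Xcl1 they equal the folds of the group means. The mean of the 2-month controls (-4.75) was 2.26-fold higher than that of the 1-month controls (-5.93, limma adjusted p = 0.291). That of the 1-month knockouts (-5.17) was 1.69-fold higher (adjusted p = 0.84). Neither difference passed the test.

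Cxcl9, Cxcl10 and Cxcl11 are the interferon-induced ligands of Cxcr3, which draw activated T cells. Cxcl10 fell with age, Cxcl9 did not pass in any comparison, and Cxcl11 was too dim to test. Cxcl10 measured -1.92, -1.07 and -2.06 in the control hearts and -1.84, -2.09 and -2.07 in the knockout hearts of 1 month. The hearts of 2 months measured -2.86, -2.62 and -2.68 in the controls and -2.55, -3.16 and -2.71 in the knockouts. The ages did not overlap in either genotype, and control heart 2 of 1 month stood highest. Averaged over the genotypes the log2 fall was 0.92 (SE 0.18, 95% interval of the difference -1.33 to -0.51, limma adjusted p = 0.0159). Without the 2 arrays of the later scan day it was 0.90 (adjusted p = 0.0684). Within a genotype the differences of -1.04 in the controls (adjusted p = 0.0809) and -0.81 in the knockouts (adjusted p = 0.18) did not pass. Between knockout and control it differed by -0.32 at 1 month (95% interval -0.89 to 0.26) and by -0.09 at 2 months (95% interval -0.66 to 0.49).

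A list of 20 other interferon response genes was read beside Cxcl10. Averaged over the genotypes, 8 of the 20 were lower at 2 months and 0 were higher, against 4.59% of all genes lower. Among them Isg15, an interferon-induced ubiquitin-like protein, fell by 0.93 on the log2 scale (limma adjusted p = 0.0234), Irf7, a transcription factor of the interferon response, by 0.86 (adjusted p = 0.0168) and Usp18, a brake on interferon receptor signalling, by 0.80 (adjusted p = 0.00658). The median of the list was -0.42 against 0.12 over all genes, and it was -0.58 to -0.42 under the other scalings. For the knockout against its controls 0 of the 20 passed at either age, against 0.0274% and 0.137% of all genes at 1 and 2 months. At an unadjusted p under 0.05 there were 0 and 1 (6.03% and 7.65% of all genes). The medians were -0.13 at 1 month and -0.26 at 2 months, with 17 and 19 of the 20 below 0. Over all genes 56.8% and 54.7% were above 0. Under the other scalings 16 to 19 were below 0 at 1 month and 19 or 20 at 2 months.

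The promoters of the 3 members with the smallest adjusted p-values for age that have an entry in the RefSeq table are shown because they differ in the motifs of inflammatory induction. Each is the 250 bases before the gene's start on GRCm38.p6, 5′ to 3′ on the gene's strand, from RefSeq. Capitals mark matches on either strand to the kappa B consensus, to a pair of GAAA separated by 2 bases (a spacing found in interferon-response elements), to AGAACA (a single arm of the glucocorticoid response element) or to TATAAA.
Cxcl14 chr13:56296552-56296801 minus: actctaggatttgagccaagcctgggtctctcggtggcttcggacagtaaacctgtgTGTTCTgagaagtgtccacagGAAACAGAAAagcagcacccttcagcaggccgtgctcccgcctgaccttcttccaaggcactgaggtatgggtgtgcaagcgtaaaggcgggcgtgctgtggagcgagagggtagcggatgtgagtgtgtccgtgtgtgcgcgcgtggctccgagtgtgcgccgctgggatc
Cx3cl1 chr8:94771930-94772179 plus: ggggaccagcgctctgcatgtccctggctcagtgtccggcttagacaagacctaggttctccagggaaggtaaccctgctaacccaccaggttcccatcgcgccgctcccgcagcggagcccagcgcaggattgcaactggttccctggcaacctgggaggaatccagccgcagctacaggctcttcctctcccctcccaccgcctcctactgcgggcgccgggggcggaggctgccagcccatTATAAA
Cxcl10 chr5:92348890-92349139 minus: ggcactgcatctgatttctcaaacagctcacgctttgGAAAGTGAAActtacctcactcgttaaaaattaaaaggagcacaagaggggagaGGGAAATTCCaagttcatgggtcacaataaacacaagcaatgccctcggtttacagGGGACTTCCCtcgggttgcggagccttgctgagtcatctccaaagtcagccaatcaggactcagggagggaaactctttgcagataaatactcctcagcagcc
The Cxcl10 promoter held 2 kappa B matches and 1 spaced GAAA pair, the Cxcl14 promoter 1 spaced GAAA pair and 1 AGAACA match on the other strand, and the Cx3cl1 promoter only TATAAA. RefSeq entries were found for 38 of the member genes, with 42 promoters. Of these 16.7% held a kappa B match, against 3.9% of all 32851 promoters, and the genes were Ccl20, Ccl9, Ccr3, Ccr6, Cxcl1, Cxcl10 and Cxcl2. The spaced GAAA pair was found in 7.14% (2.98% of all), TATAAA in 28.6% (12.4% of all) and AGAACA in 11.9% (16.1% of all). The full glucocorticoid palindrome, AGAACA and TGTTCT separated by 3 bases, was in 0 of the 42 and in 0.00913% of all promoters. A match is a description of these letters and not a measured binding site.

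The ligands that attract eosinophils and type 2 helper T cells (Ccl1, Ccl11, Ccl17 and Ccl24) had a median log2 difference with age of 1.02 in the controls and 0.38 in the knockouts, against 0.12 and 0.10 over all genes. These medians depended on the scaling. With array median, quantile, and normexp with quantile scaling they were 0.76, 0.66 and 0.25 in the controls. In the knockouts they were 0.32, 0.32 and 0.08. Ccl11 and Ccl1 passed when the genotypes were averaged. Ccl11 (eotaxin), the main eosinophil attractant, measured -2.53, -2.98 and -3.63 in the control hearts and -2.42, -2.83 and -2.77 in the knockout hearts of 1 month. Its values at 2 months were -1.24, -2.11 and -1.89 in the controls and -1.55, -2.47 and -2.04 in the knockouts. The ages did not overlap in the controls, and in the knockouts heart 2 of 2 months (-2.47) lay within the 1-month range. The rise over both genotypes was 0.98 on the log2 scale (SE 0.24, limma adjusted p = 0.0361). It was 0.53 with normexp and quantile scaling (adjusted p = 0.0732), 0.85 with quantile scaling (adjusted p = 0.072) and 0.82 with array median centring (adjusted p = 0.255). Within the controls the difference was 1.30 (SE 0.34, adjusted p = 0.0934) and within the knockouts 0.66 (adjusted p = 0.415). The averaged call was also lost when any 1 of 9 hearts was left out: control hearts 2 and 3 and knockout hearts 1, 2 and 3 of 1 month, and control hearts 1 and 3 and knockout hearts 1 and 3 of 2 months (log2 rise 0.83 to 1.04, adjusted p 0.0533 to 0.0867).

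Ccl1 was dim, well above background in 1 control and 0 knockout hearts of 1 month and in 3 controls and 2 knockouts of 2 months. It measured -6.67, -6.02 and -5.60 and then -5.91, -5.58 and -6.08 in the controls and knockouts of 1 month, and -5.40, -3.73 and -3.96 and then -4.02, -5.35 and -5.19 at 2 months. All 2-month hearts lay above all 1-month hearts. The mean of the knockouts of 2 months (-4.85) was 2.00-fold higher than that of 1 month (-5.86, limma adjusted p = 0.393). The 1-month knockouts were not well above background, and the averaged log2 difference, 1.37 (adjusted p = 0.0433), contains that group. That value was 0.91 with quantile scaling (adjusted p = 0.242) and 0.20 with normexp and quantile scaling (adjusted p = 0.25), and the call was lost in 9 of the 11 alternatives that left out no single heart. Ccl1 also lost it without any 1 of 10 hearts, the exceptions being control heart 3 of 1 month and control heart 1 of 2 months (adjusted p 0.0617 to 0.103). Ccl17, the thymus and activation regulated ligand of Ccr4, measured -4.48, -5.30 and -5.09 and -3.92, -4.72 and -4.97 at 1 month in controls and knockouts, and -5.21, -3.43 and -4.00 and -5.12, -4.70 and -3.46 at 2 months, with overlap between all groups. Its effects at the 2 ages differed by -0.63 (95% interval -2.37 to 1.11), and those of Ccl11 by -0.65 (95% interval -1.72 to 0.43). Between knockout and control the median over these 4 ligands was 0.31 at 1 month and -0.24 at 2 months, with 0 of 4 passing limma's test at either age and 0 of 4 at an unadjusted p under 0.05. All 4 values were above 0 at 1 month, but only 3 of 4 with array median or quantile scaling, while at 2 months all 4 were below 0 under each scaling.

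**Figure D2:**
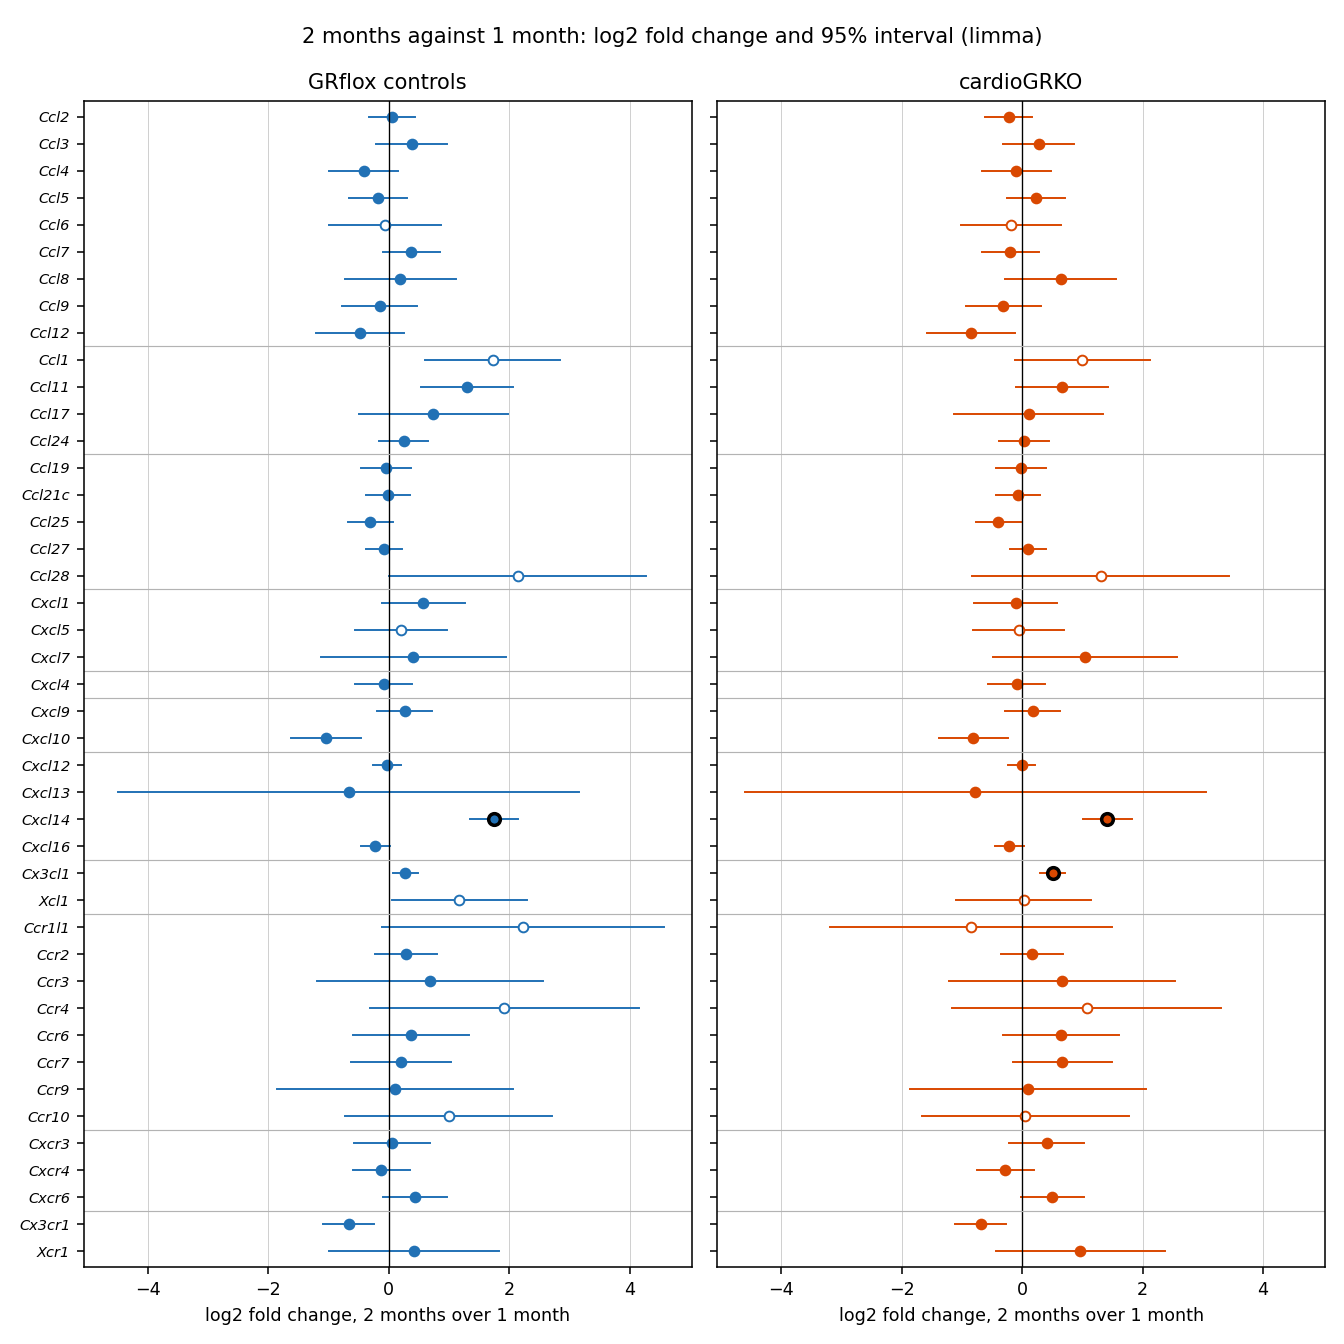
Log2 fold change from 1 to 2 months (horizontal axis, log2 units) with its 95% interval for 43 of the 44 tested members, in controls and in knockouts; filled points were well above background on all 12 arrays, a black rim marks an adjusted p under 0.05, and grey lines separate the roles. Cxcl14 stands at 1.75 and 1.42, Cx3cl1 has a rim in the knockouts, and the widest intervals belong to Cxcl13 and to dim receptors.

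The 9 monocyte-attracting CC ligands (Ccl2 to Ccl9 and Ccl12), the classical inflammatory members that recruit monocytes, showed no called difference between knockout and control. None of the 9 passed limma's test in any comparison, and 0 of 9 had an unadjusted p under 0.05 for the knockout at 1 or 2 months. Their differences between knockout and control ran from -0.28 (Ccl4) to 0.51 (Ccl12) at 1 month, with a median of 0.00, and from -0.41 (Ccl7) to 0.39 (Ccl3) at 2 months, with a median of 0.04. Ccl2, the main monocyte attractant, measured -0.16, 0.34 and 0.02 in the control hearts and 0.35, -0.09 and -0.06 in the knockouts at 1 month. At 2 months it measured 0.05, 0.09 and 0.23 in the controls and -0.03, -0.40 and -0.04 in the knockouts. At 2 months all 3 knockout hearts lay below all 3 controls by small margins, and the 95% interval of the log2 difference was -0.67 to 0.11 (at 1 month -0.38 to 0.39). With age Ccl12 differed by -0.85 in the knockouts, where the ages did not overlap (adjusted p = 0.262), and by -0.47 in the controls (adjusted p = 0.504).

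Among the 5 tested homeostatic CC ligands, which organise lymphoid tissue and epithelium, none passed in any comparison with all 12 hearts. In the age average Ccl25 passed without control heart 3 of 1 month (-0.44, adjusted p = 0.0263) and Ccl28, which several arrays did not detect, without control heart 3 of 2 months (adjusted p = 0.0366). Ccl21c and Ccl19, the ligands of Ccr7, ranged over 0.55 and 0.80 log2 units across the 12 hearts. Ccl27, a skin-homing ligand, had a log2 difference of 0.32 between knockout and control at 2 months, with groups that did not overlap (unadjusted p = 0.0375, adjusted p = 0.6). Ccl25, the thymus and gut ligand of Ccr9, differed by -0.39 with age in the knockouts (adjusted p = 0.307) and by -0.31 in the controls. Another, dimmer Ccl25 probe, also above background on all 12 arrays, gave -0.27 in the knockouts and 0.10 in the controls. In the age average that probe gave -0.08. Ccl28, a mucosal ligand, was well above background on only 8 arrays and varied by 4.09 log2 units. Ccl21 and Ccl27 have near-identical copies in the mouse genome, so which copy their probes read is uncertain.

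Among the neutrophil attractants Cxcl2 was above background on no array and Cxcl15 on 1, and none of Cxcl1, Cxcl5 and Cxcl7 passed with all 12 hearts. Cxcl1 measured -3.51, -3.52 and -3.14 in the control hearts and -3.65, -3.19 and -3.21 in the knockouts at 1 month, and -3.07, -2.29 and -3.10 and -2.93, -4.01 and -3.44 at 2 months. The groups overlapped at both ages, and its effects at the 2 ages differed by -0.68 (95% interval -1.65 to 0.29). Cxcl5 was well above background on 4 arrays: 1 control of 1 month, 2 controls of 2 months and 1 knockout of 2 months. It measured -6.07, -6.11 and -5.64 in the control hearts and -6.80, -6.63 and -6.73 in the knockouts at 1 month, and -6.07, -5.67 and -5.48 and -5.90, -7.07 and -7.36 at 2 months. At 1 month its mean was 1.71-fold lower in the knockouts (means -5.94 and -6.72, limma adjusted p = 0.813), with groups that did not overlap. At 2 months the log2 difference was -1.04 (adjusted p = 0.43). Most of the values behind these differences were not well above background and only bound the level, so neither is a measured size. Averaged over the ages it did not pass (adjusted p = 0.154). Without knockout heart 1 of 2 months, the only knockout heart in which Cxcl5 was well above background, the adjusted p was 0.024, but it was well above background on none of the other 5 knockout arrays, so no size is given. Cxcl5 was added to the named genes after its values were seen.

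Cxcl7 (platelet basic protein) and Cxcl4 (platelet factor 4) are stored in platelet granules. Cxcl7 measured 1.48, -0.25 and 0.94 in the control hearts and 0.65, -0.10 and -0.06 in the knockouts at 1 month, and 1.84, -0.53 and 2.10 and 1.57, 1.18 and 0.86 at 2 months. In the knockouts the ages did not overlap, with a log2 difference of 1.04 (95% interval -0.49 to 2.57, limma adjusted p = 0.527), while in the controls heart 2 was the lowest at both ages. Cxcl4 ranged from 2.85 to 3.67 over the 12 hearts, and its difference between knockout and control was 0.15 at 1 month and 0.14 at 2 months (adjusted p = 0.884 and 0.971).

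**Figure D3:**
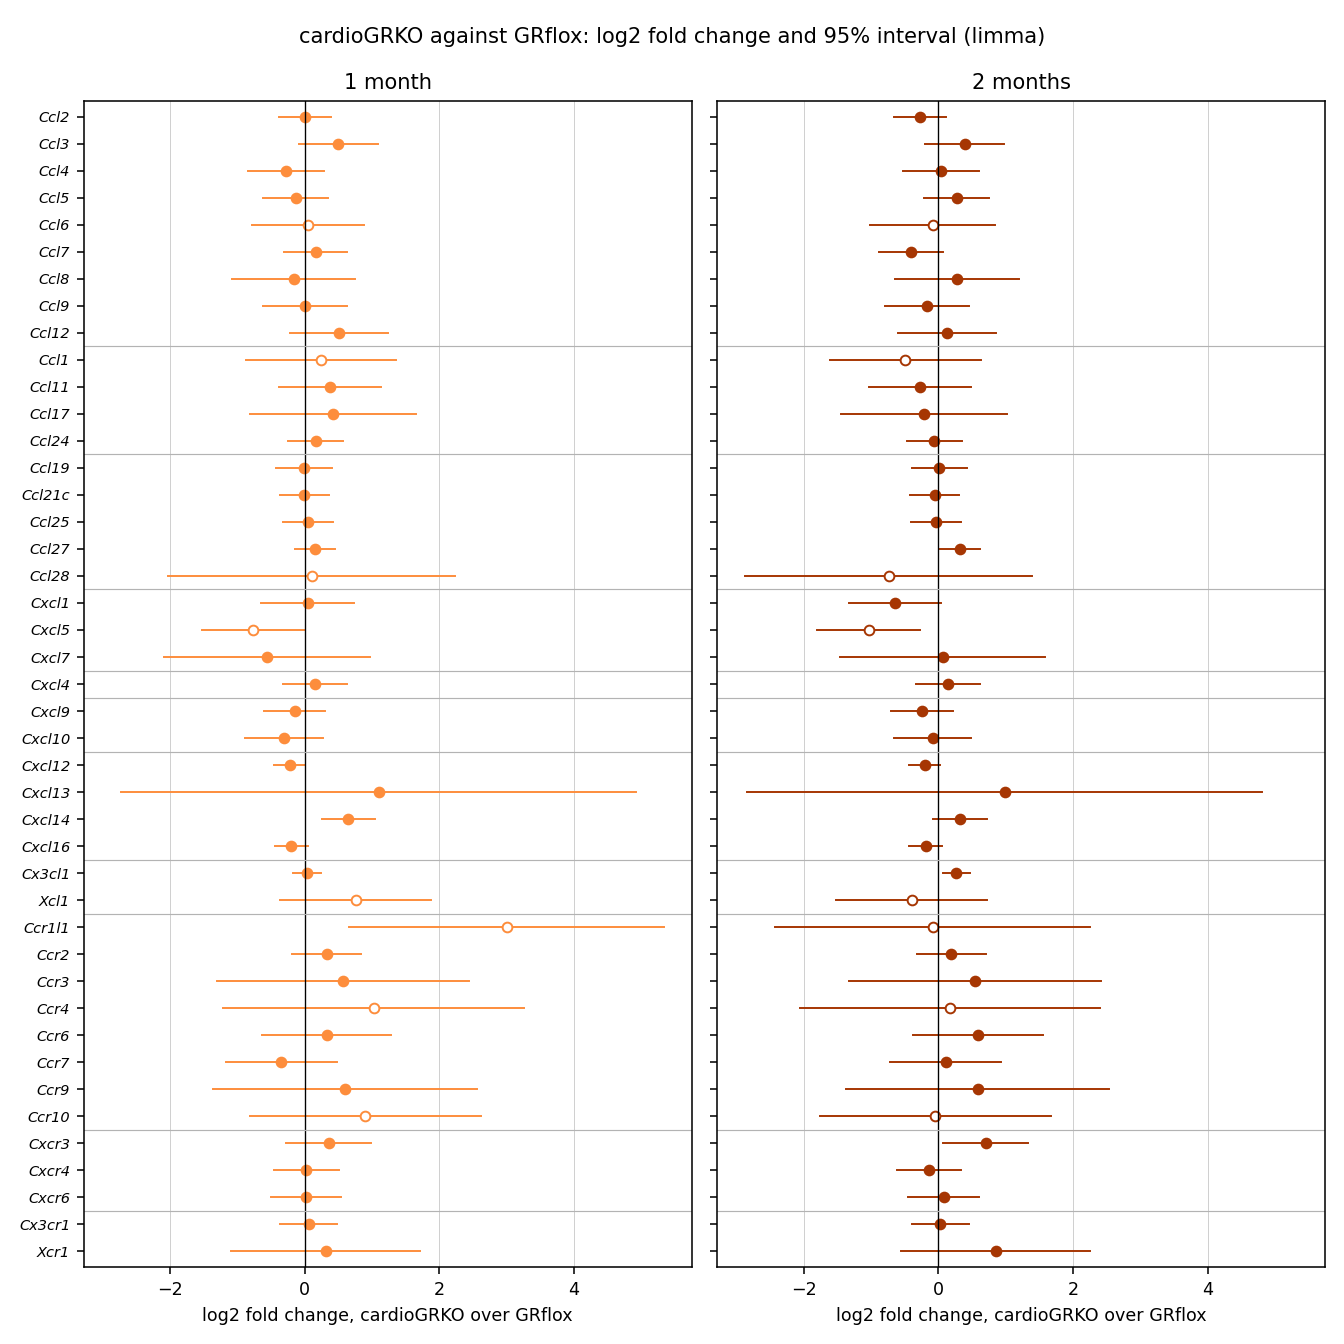
Log2 fold change of knockout over control (horizontal axis, log2 units) with its 95% interval for 43 of the 44 tested members at 1 and 2 months; filled points were well above background on all 12 arrays and grey lines separate the roles. No point has the black rim of an adjusted p under 0.05. Among the points with intervals above 0 are Cxcl14 at 1 month (0.65) and Cx3cl1, Cxcr3 and Ccl27 at 2 months (0.27 and 0.70 for the first 2 of these).

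None of the receptor genes passed within a genotype or within an age, and only Cx3cr1 passed in the age average. Of the 14 tested receptors, 13 had a log2 difference above 0 for the knockout at 1 month and 10 at 2 months, with medians of 0.32 and 0.14, where 56.8% and 54.7% of all genes were above 0. With age 12 of 14 were above 0 in the controls and 11 of 14 in the knockouts, where 64.5% and 62.6% of all genes were. These counts depended on the scaling: with 3 other scalings they were 9 or 10 of 14 and 8 to 11 of 14 for the knockout at 1 and 2 months, and 8 or 9 and 9 or 10 of 14 for age. Several receptors followed the 3 arrays that detected the most probes: Ccr3, Ccr4, Ccr10 and Ccr1l1 were higher on all 3 of them than on all other 9 arrays, as was the ligand Ccl17. In all, 5 of 44 members (11.4%) had this pattern, against 14.5% of all genes. The 3 arrays belong to 3 different groups, 1-month knockouts, 2-month controls and 2-month knockouts, and none is a 1-month control.

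Ccr3, the eosinophil receptor of Ccl11, measured -3.54, -4.18 and -3.92 in the control hearts of 1 month and -1.84, -4.13 and -3.96 in the knockouts, and -4.16, -2.18 and -3.23 and -3.89, -2.99 and -1.06 at 2 months. Its highest 3 values were those of the 3 arrays named above. Xcr1, the receptor of cross-presenting dendritic cells, measured -3.88, -4.05 and -3.33 and -2.06, -4.15 and -4.13 at 1 month in controls and knockouts, and -4.06, -3.23 and -2.70 and -3.16, -2.66 and -1.62 at 2 months. Its highest 2 values were the slide 4 arrays. With age it differed by 0.97 in the knockouts (adjusted p = 0.522), and its log2 difference between knockout and control at 2 months, 0.85 (95% interval -0.55 to 2.25), was -0.16 with slide as a block and -0.21 within slide 3. Ccr9, the gut-homing receptor of Ccl25, measured -5.18, -3.36 and -5.61 and -2.78, -4.71 and -4.88 at 1 month, and -5.03, -3.73 and -5.07 and -5.15, -4.42 and -2.52 at 2 months. Again the 2 slide 4 arrays were highest, and without the first of them the difference between knockout and control at 1 month went from 0.59 to -0.08.

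Cxcr3, the receptor of Cxcl9 and Cxcl10 on activated T cells, measured -3.37, -3.30 and -3.70 in the control hearts and -2.72, -3.27 and -3.32 in the knockouts at 1 month. The hearts of 2 months measured -3.99, -3.12 and -3.08 in the controls and -2.59, -3.05 and -2.45 in the knockouts. All 3 knockout hearts of 2 months lay above all 3 controls, with a log2 difference of 0.70 (SE 0.28, 95% interval 0.07 to 1.33, limma unadjusted p = 0.0323, adjusted p = 0.572). The lymphocyte marker sum was 5.37, 4.67 and 10.1 in these controls and 10.02, 7.84 and 9.38 in these knockouts, and its part in the Cxcr3 difference was not tested. The difference kept its sign under every alternative tried, with 0.41 without control heart 1 of 2 months, 0.36 with slide as a block and 0.27 within slide 3.

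**Figure D4:**
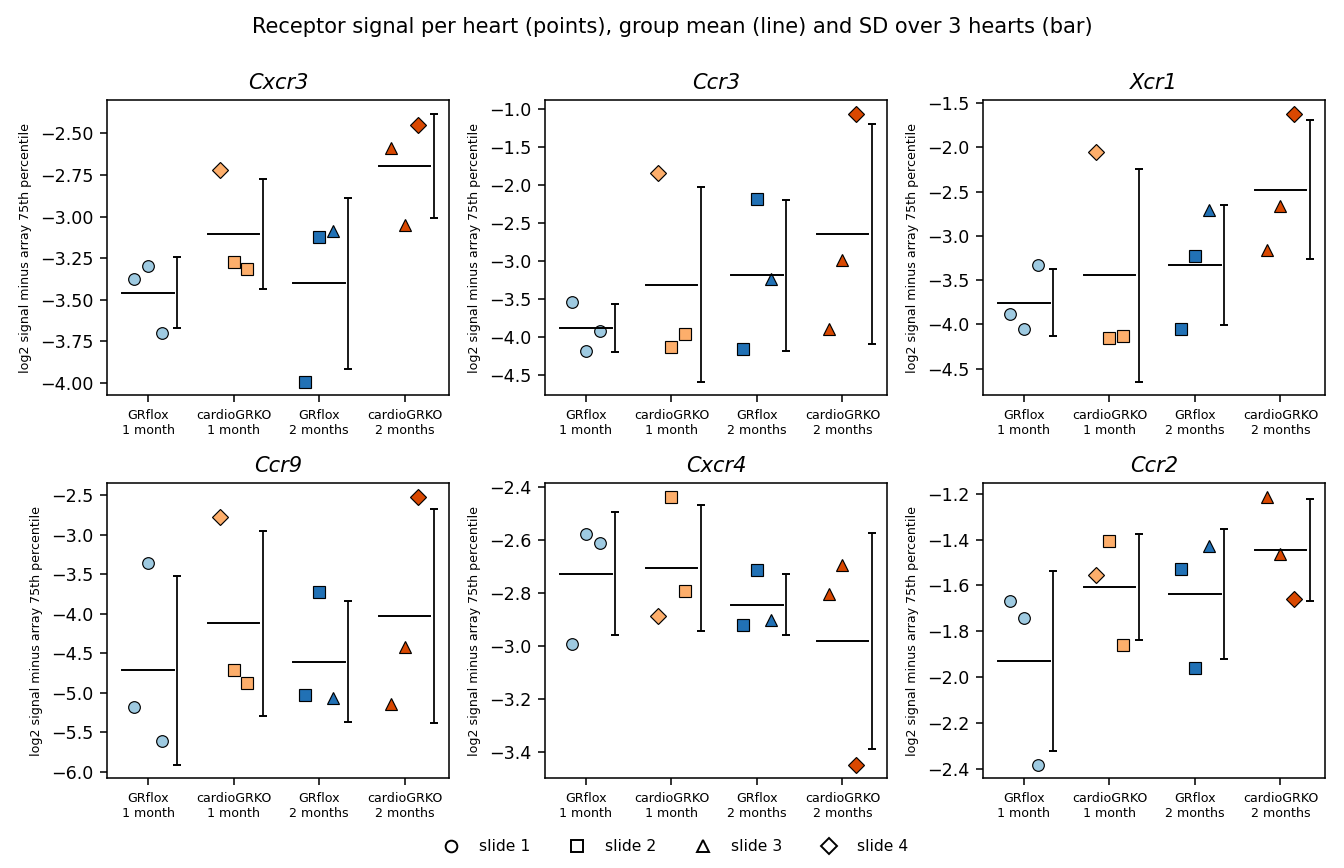
Scaled log2 signal (vertical axis, log2 units relative to the array's 75th percentile) of 6 receptors in each of the 12 hearts, by group; points are hearts, their shapes the 4 slides, lines group means and bars the SD over 3 hearts. The slide 4 hearts (diamonds) were highest for Ccr3, Xcr1 and Ccr9, Cxcr3 of the 2-month knockouts lay between -3.05 and -2.45, and the groups overlapped for Cxcr4 and Ccr2.

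Neither Ccr2 nor Cxcr4 passed in any comparison. Ccr2, which brings monocytes out of the marrow, measured -1.67, -1.74 and -2.38 in the control hearts and -1.56, -1.41 and -1.86 in the knockouts at 1 month, and -1.53, -1.96 and -1.43 and -1.21, -1.47 and -1.66 at 2 months. Its difference between knockout and control was 0.32 at 1 month (95% interval -0.19 to 0.84) and 0.19 at 2 months (95% interval -0.32 to 0.71). A second, dimmer Ccr2 probe, well above background on 4 arrays, gave -0.03 and -0.23, with the opposite sign at both ages.

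Cxcr4, the receptor of Cxcl12, measured -2.99, -2.58 and -2.61 in the control hearts and -2.89, -2.44 and -2.79 in the knockouts at 1 month, and -2.92, -2.71 and -2.90 and -2.80, -2.69 and -3.45 at 2 months. Knockout heart 3 of 2 months was lowest and the groups overlapped. The knockout difference was 0.02 at 1 month (95% interval -0.46 to 0.50) and -0.14 at 2 months (95% interval -0.62 to 0.34). A second Cxcr4 probe gave 0.31 and 0.15, with the opposite sign at 2 months, and its highest values were the slide 4 arrays (-2.71 and -2.62). Ccr1l1, a dim receptor-like gene next to Ccr1 on chromosome 9, was above background in none of the 1-month controls and in 2 of the 1-month knockouts. With the dim arrays set as for Xcl1, the knockouts were 4.79-fold higher (means -8.11 and -5.11, limma adjusted p = 0.756). This fold sets no minimum against the spread between hearts.

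**Figure D5:**
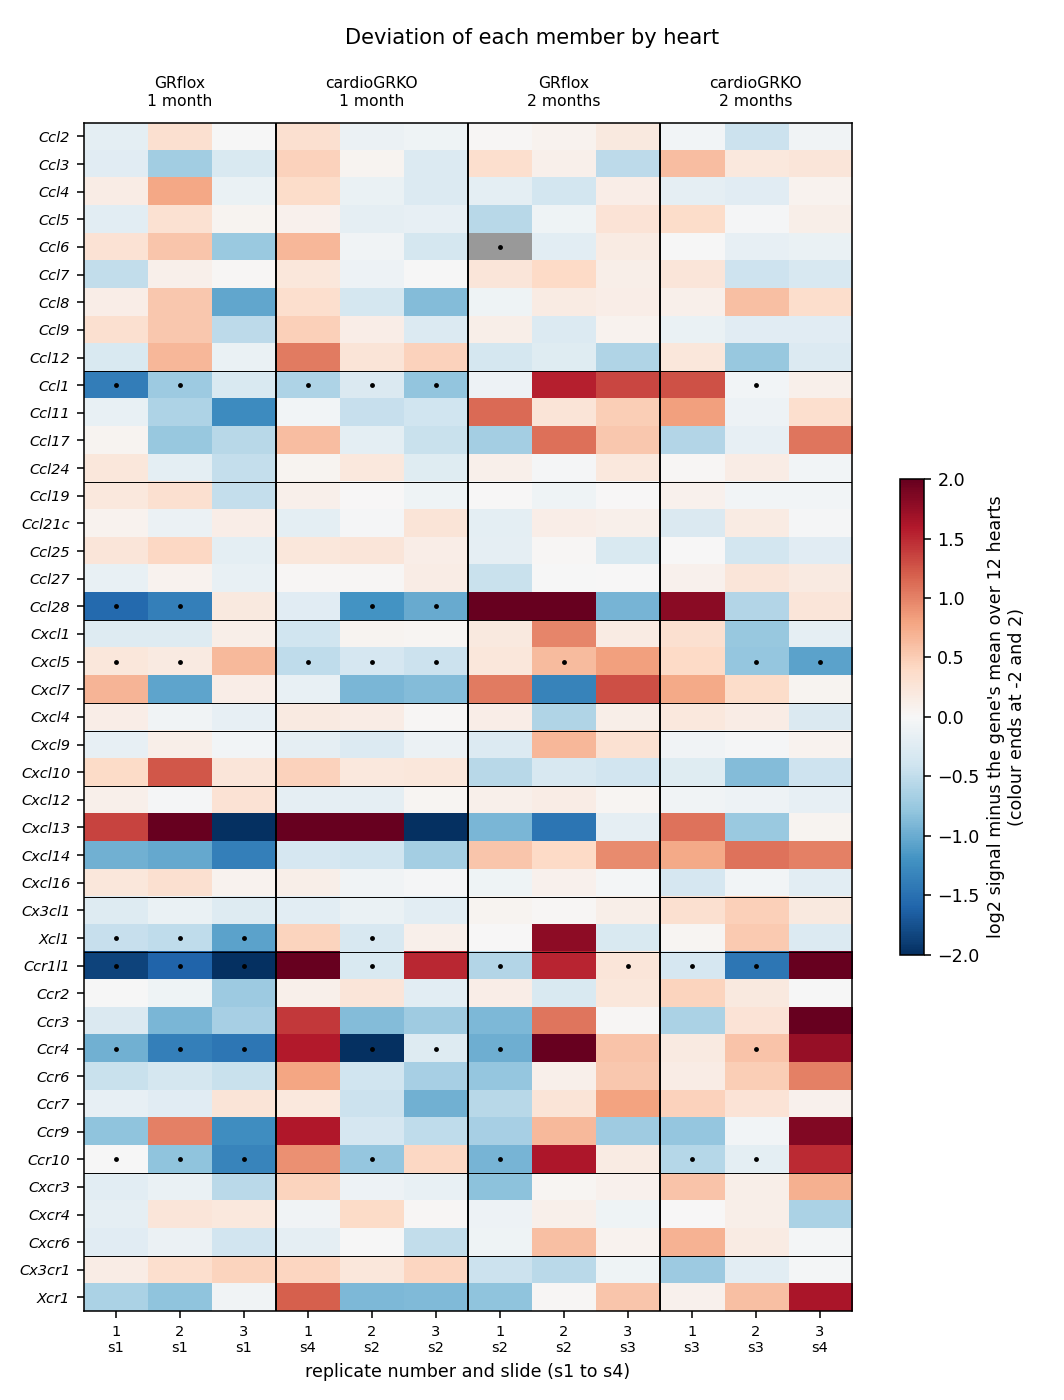
Deviation of 43 of the 44 tested members, each from its own mean over the 12 hearts (colour, log2 units, ends at -2 and 2) by heart, with replicate number and slide below; black points mark spots not well above background and the grey field is the Ccl6 spot left out. Cxcl14 is below its mean in the 1-month hearts and above it in the 2-month hearts, while Ccr3, Ccr4 and Ccr10 are red in the 3 arrays that detected the most probes.

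Many of the member genes lie in clusters. On chromosome 11, which holds 14 of the 51 genes, Ccl2, Ccl7, Ccl11, Ccl12, Ccl8 and Ccl1 follow each other between 82118723 and 82258468 (mm7). Averaged over the genotypes, Ccl11 and Ccl1 rose by 0.98 and 1.37 on the log2 scale with age, while the values of Ccl2, Ccl7, Ccl12 and Ccl8 were -0.08, 0.09, -0.66 and 0.42 and did not pass. In the second cluster of that chromosome (Ccl5, Ccl9, Ccl6, Ccl3 and Ccl4) the values ran from -0.25 to 0.33 and none passed. Chromosome 5 holds 11 members, and there Cxcl10, with a fall of 0.92, lies beside Cxcl9, with a difference of 0.22 that did not pass (adjusted p = 0.349). Chromosome 9 holds 10 receptor genes, of which Cx3cr1 alone passed in any comparison, on its brighter probe.

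Some family members are outside the name rule, many of them because they carry older names on this array. Among them are the atypical receptors, which bind chemokines without G protein signalling and clear them. Of 7 such receptors and chemokine-like genes tested, 0 passed for the knockout at either age, against 0.0274% and 0.137% of all genes at 1 and 2 months. At an unadjusted p under 0.05 there were 0 and 1, against 6.03% and 7.65% of all genes. Averaged over the genotypes, 2 of 7 fell with age and 0 rose, against 4.59% and 4.27% of all genes: Ackr2, a scavenger of inflammatory CC ligands, by 0.52 on the log2 scale (limma adjusted p = 0.0209) and Cklf, a chemokine-like factor, by 0.48 (adjusted p = 0.00683), which also fell in the controls alone (0.54, adjusted p = 0.0415). Ackr3, the scavenging receptor of Cxcl12, measured between 2.89 and 3.42 over the 12 hearts and differed by -0.09 and 0.02 between knockout and control at 1 and 2 months. The receptors Cxcr2 and Cxcr5 and the ligand Cxcl17 also carry older names, and none of them passed in any comparison. Cxcr2 differed by -0.11 and -0.66 between knockout and control at 1 and 2 months (limma adjusted p = 0.97 and 0.918). Cxcr1 and Cxcl3, likewise under older names, were not tested. Of 25 genes of chemokine receptor signalling (G protein subunits, kinases and arrestins) 0 passed for the knockout at either age, with 4 and 6 at an unadjusted p under 0.05, against 6.03% and 7.65% of all genes. Averaged over the genotypes, 1 of the 25, Gnb1, fell with age by 0.36 (adjusted p = 0.0423), against 4.59% of all genes. Of 23 genes of nuclear factor kappa B and acute cytokines, which glucocorticoids are known to repress, 0 passed for the knockout at either age. At an unadjusted p under 0.05 there were 0 and 2 (6.03% and 7.65% of all genes), and the medians were 0.03 and 0.00. Of these 23, the inhibitor Nfkbie fell with age by 0.43 over both genotypes (adjusted p = 0.033).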

How the data were processed

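Per the labels' protocols, 500 ng of RNA from each heart was labelled with Cy3. Per the submitters' processing notes, scans were read with Agilent Feature Extraction 9.5. Each deposited scanner file gives a processed signal, a linear intensity, and the deposited value table was identical to it (largest relative difference 0).

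From these, 1639 control features of 45018 and non-uniform spots were left out, and spots of a probe were averaged to 41174 probes. The test was limma 3.58.1 (R 4.3.3) on log2 intensity minus each array's 75th percentile, with a mean for every group, all 12 arrays together and Benjamini-Hochberg adjustment over 21907 genes per comparison. A probe entered if well above background on at least 3 arrays, and the brightest probe represented a gene. Probe positions are those of the files (mm7). The design names the 3 mice of a group as separate animals. Errors are SE of the fit, and intervals are 95%. No paired analysis is part of the main results, as the labels state no pairing. Same-numbered hearts correlated between -0.694 and 0.494. Hearts with different numbers were not set beside them, so these values cannot decide whether the numbers pair the hearts. Simulated data were used to test the fit.

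Genes given heart by heart are Cxcl14 and Cxcl12, members that passed, the 3 largest differences per comparison among members detected on all arrays, the receptors Cxcr4, Ccr2 and Cx3cr1, and members detected in all hearts of one group and none of another. From other lists up to 4 genes that passed are named. Ccl2, Ccl12, Ccl27, Ccl25, Cxcl4, Cxcl16, Ccr3 and Ccr1l1 were added after their values were seen. The members and lists were chosen with earlier results of these data known. The averages over ages or genotypes and the comparison within slide 3 were added after the data were seen. Values of 1 member, which enters the counts and medians, are not reported here.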

Additional observations from a re-analysis of the deposited data

How the results depend on the processing

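Up to 27 alternatives per comparison were run for each count of members: 3 other scalings, the deposited table, 2 other filters, the mean of probes, terms for slide, scan day or replicate, trended and robust variances, only the arrays compared, and leaving out the later scan day or each heart. For the knockout at 1 month, at 2 months and for the difference between the ages the count of members stayed at 0 in all of them. For age in the controls the count of 1 became 0 with array median centring or with the compared arrays only, and 2 with normexp and quantile scaling, a filter of all 12 arrays, trended and robust variances, or the replicate block; leaving out hearts gave 1 to 1. For age in the knockouts the count of 2 became 0 with array median centring, slide as a fixed block, without the second scan day, the compared arrays only or the replicate block. It became 1 with quantile scaling, normexp and quantile scaling, no filter on dim probes, the mean of all entering probes, slide as a random block or scan day as a block, and leaving out hearts gave 0 to 1. For age averaged over the genotypes the count of 6 became 1 with array median centring, 3 without the second scan day, 4 with quantile scaling, normexp and quantile scaling, no filter on dim probes, the mean of probes or slide as a random block, and 5 with the filter of all 12 arrays, trended and robust variances or the replicate block, and leaving out hearts gave 4 to 6. For the averaged knockout, leaving out hearts gave 0 to 1.

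Signs changed for the knockout difference of Ccr9 at 1 month (-0.12 with scan day as a block, -0.079 without the second scan day, and -0.079 to 1.27 when hearts were left out, the lowest without knockout heart 1), Cxcl12 at 1 month (0.0030 with normexp and quantile scaling), Cxcl13 at 1 month (-0.84 to 2.66 when hearts were left out, the lowest without control heart 3) and at 2 months (-0.025 with slide as a block), Cxcl14 at 2 months (-0.025 within slide 3) and Xcr1 at 2 months (-0.16 with slide as a block, -0.21 within slide 3). The cause was not tested. None of these differences had passed. Over all genes the counts of 6, 30, 465 and 179 (knockout at 1 and 2 months, age in controls and knockouts) ranged over 0 to 17, 0 to 82, 9 to 786 and 0 to 441 under the alternatives. Array median centring moved the median of all genes from 0.04 to -0.20 for the knockout at 1 month and from 0.12 to -0.13 for age in the controls, and that of the members from 0.08 to -0.16 and from 0.21 to -0.05.

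Whether the replicate numbers pair the hearts is not known. With the replicate block, Cxcl14 kept its log2 rise of 1.42 in the knockouts but lost its call (adjusted p = 0.0814), and Ccl11 passed in the controls (1.30, adjusted p = 0.0432). Slide as a fixed block could not be fitted for comparisons with the 1-month controls, whose slide held no other group. With 3 arrays per group precision is limited. Of the 44 members, 8 were not detected on some arrays, and of these all but Ccl6 were dim. Where a dim probe was not well above background, its value only bounds the level.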
